A study of Mus musculus with 24 samples.

Results

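Dntt, Flt3, Il7r, Rag1, Rag2, Bach2, Ltb, Cd48, Notch1 and Satb1 are 10 genes grouped here as lymphoid priming genes. They were followed over 5 cell populations sorted from mouse bone marrow. The name does not describe every member on these arrays. Flt3 was lowest in B progenitors, while Ltb was highest in wildtype stem cells and Cd48 in wildtype myeloid progenitors. The genes were chosen by name, as a set in which Dntt, Flt3 and Il7r were already known from these arrays to be low in myeloid progenitors of Dnmt1 hypomorph mice. All 10 were on the array, of 18194 genes with a probe set annotated to a single symbol. They had 20 such probe sets, of 45101 on the array. All 10 passed the filter on dim probe sets that left 12745 genes for testing, which asked for at least 2 arrays at or above the median of all values (log2 4.64). Rag1 passed through the 2 B progenitor arrays alone, and Il7r through the B progenitor and wildtype MP arrays. Both thus had to differ from the dim populations, and neither is tested against B progenitors. Rag2 passed through the same arrays as Il7r and through hypomorph MP array 3, with every HSC array below that median. Its differences between HSC and other cell types carry the same limit and are given without p-values.

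The populations were wildtype B cell progenitors (2 arrays), hypomorph and wildtype myeloid progenitors (MP, 3 arrays each), and haematopoietic stem cells (HSC) of hypomorph (3 arrays) and wildtype (2 arrays) mice. Hypomorph mice were labelled 129ola Dnmt1-/chip and wildtype mice 129ola Dnmt1+/+. They were 8 to 12 weeks old, and the genotype is that of the whole animal, so cells other than blood cells carry it too. Neither the sorting gates nor the animals behind each array are given in the labels. The p-values therefore reflect array-to-array spread, which may be partly technical. The Y-linked gene Eif2s3y ran from 2.35 to 8.68 in wildtype HSC, 2.87 to 9.22 in hypomorph MP and 2.75 to 9.35 in wildtype MP. It ran from 2.47 to 10.16 in B progenitors and from 6.95 to 9.31 in hypomorph HSC. Outside hypomorph HSC, arrays of the same group thus differed in the sex of their animals, and their spread is not technical alone. Whether CD48, FLT3 or the IL-7 receptor was a sorting marker is not known.

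Haematopoietic stem cells give rise to multipotent progenitors, some of which switch on a set of lymphoid genes at a low level before they commit. Those lymphoid-primed cells carry the cytokine receptor FLT3, begin to transcribe Dntt and Rag1, and depend on interleukin 7 once the IL-7 receptor appears, while myeloid-committed progenitors lose these genes. DNMT1 copies CpG methylation onto the new DNA strand after replication.

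Because DNMT1 acts on CpG dinucleotides, the promoters of 5 members are shown. They are Dntt, Flt3 and Il7r, by which the set was chosen, and Cd48 and Ltb. Notch1, which like Cd48 and Ltb was called between the HSC genotypes, is not shown, and its CpG count is given below. Each window holds 300 bases from 250 bases before to 50 bases after the RefSeq start (GRCm38.p6), with every CpG in capitals. Dntt lies at chr19:41029025-41029324 on the plus strand, Flt3 at chr5:147400440-147400739 on the minus strand, Il7r at chr15:9529827-9530126 on the minus strand, Cd48 at chr1:171681742-171682041 on the plus strand and Ltb at chr17:35194257-35194556 on the plus strand.
Dntt: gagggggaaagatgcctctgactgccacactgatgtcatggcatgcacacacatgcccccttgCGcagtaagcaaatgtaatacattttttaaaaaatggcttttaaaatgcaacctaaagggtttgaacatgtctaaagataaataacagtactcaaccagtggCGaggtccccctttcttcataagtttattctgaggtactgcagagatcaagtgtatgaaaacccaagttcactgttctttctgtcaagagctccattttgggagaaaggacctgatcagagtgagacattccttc
Flt3: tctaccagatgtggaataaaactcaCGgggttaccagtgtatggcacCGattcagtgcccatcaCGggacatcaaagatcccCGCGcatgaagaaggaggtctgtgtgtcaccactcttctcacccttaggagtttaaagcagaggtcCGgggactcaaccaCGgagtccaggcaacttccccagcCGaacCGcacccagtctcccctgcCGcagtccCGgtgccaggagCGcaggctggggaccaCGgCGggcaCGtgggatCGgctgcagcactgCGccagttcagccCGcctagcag
Il7r: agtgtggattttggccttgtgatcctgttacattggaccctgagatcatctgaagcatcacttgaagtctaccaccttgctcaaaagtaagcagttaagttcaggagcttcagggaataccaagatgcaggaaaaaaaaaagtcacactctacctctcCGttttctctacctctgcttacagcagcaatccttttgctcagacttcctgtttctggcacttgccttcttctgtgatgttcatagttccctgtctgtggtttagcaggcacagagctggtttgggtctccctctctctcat
Cd48: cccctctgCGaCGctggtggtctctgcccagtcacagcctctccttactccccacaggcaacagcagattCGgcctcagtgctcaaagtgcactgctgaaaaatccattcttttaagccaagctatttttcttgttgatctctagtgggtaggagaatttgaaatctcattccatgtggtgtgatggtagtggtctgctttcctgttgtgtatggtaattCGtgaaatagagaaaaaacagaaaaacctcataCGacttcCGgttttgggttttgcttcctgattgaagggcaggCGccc
Ltb: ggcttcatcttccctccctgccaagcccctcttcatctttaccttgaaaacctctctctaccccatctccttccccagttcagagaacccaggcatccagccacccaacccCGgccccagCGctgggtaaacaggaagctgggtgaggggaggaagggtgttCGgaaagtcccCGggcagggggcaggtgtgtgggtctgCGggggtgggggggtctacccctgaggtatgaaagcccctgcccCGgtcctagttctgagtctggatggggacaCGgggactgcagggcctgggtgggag

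The promoters of Dntt and Il7r hold few CpG. Il7r has 1 CpG in its window, and 5.43% of all 32851 RefSeq mouse promoters of this length have fewer. Dntt has 2, and 14.1% of promoters have fewer. The Flt3 window is richer, with 18 CpG (70.3% of promoters have fewer), while Cd48 and Ltb sit at the median of all promoters with 7 each. So Il7r and Dntt lie near the low end of the range of CpG content, and Flt3 above its median. Among the other members Rag1 and Rag2 have 3 each, Bach2 7 and Notch1 23 (78.5% of promoters have fewer). The 5 annotated Satb1 starts hold between 3 and 45. Methylation was not measured on these arrays. The E-box letters CANNTG, searched on both strands, occur 3 times in the Dntt window and 3 times in that of Il7r, but 72.3% of all promoters hold them.

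The genotype and cell type labels were checked first. Dnmt1 averaged 8.94 ± 0.42 (SD, n = 3) in hypomorph HSC and 11.69 ± 0.15 (n = 2) in wildtype HSC on the log2 scale, a 6.75-fold lower level (limma adjusted p = 2.835e-05). In MP it averaged 8.14 ± 0.12 in hypomorph and 11.48 ± 0.22 in wildtype cells (SD, n = 3 each), 10.1-fold lower (adjusted p = 7.228e-06). The mean log2 level of 9 B lineage markers per array was 10.01 to 10.07 in B progenitors and 4.69 to 5.24 on all other arrays. The mean of 9 stem cell markers was 6.77 to 7.01 in hypomorph MP and 7.21 to 7.78 in wildtype MP, against 9.10 to 9.47 in hypomorph HSC and 9.97 to 10.14 in wildtype HSC. The 10 myeloid and erythroid progenitor markers averaged 11.45 to 11.84 in MP, against 7.50 to 8.87 in HSC. Marker levels thus followed the labelled cell types. Arrays did differ between the HSC genotypes in other ways: 11 proliferation genes averaged 10.18 to 10.36 in hypomorph and 8.67 to 8.71 in wildtype HSC, with 8 of 11 higher and 0 lower by the test. In hypomorph against wildtype HSC the test also called 3 of 10 myeloid and erythroid markers higher, and 1 of 9 stem cell markers higher with 3 lower. Of 6 dendritic cell markers 2 were called higher, Ccr2 and Clec10a. They carried the list mean, 6.49 to 6.74 in hypomorph and 5.67 to 5.81 in wildtype HSC, while the list median of the log2 fold change was 0.20. Of 9 B lineage markers 2 were called lower. Of 4 tested T and NK cell markers 0 were called. These values move with every HSC genotype result below, and their part in those results was not tested. Sex was not balanced between the HSC genotypes either. The Y-linked gene Eif2s3y read 6.95 to 9.31 in hypomorph HSC, but 2.35 on 1 wildtype HSC array and 8.68 on the other. The part of sex in the HSC results, including those that turn on 1 wildtype HSC array, was not tested. In MP no marker of proliferation, the B lineage, T and NK cells, dendritic cells or the myeloid and erythroid lineages was called between genotypes, while 1 of 9 stem cell markers, Fgd5, was lower in hypomorph cells.

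Flt3 and Il7r encode the cytokine receptors of the set. Flt3, the receptor for FLT3 ligand, had levels of 7.37, 7.72 and 7.60 in hypomorph MP, against 8.98, 9.02 and 9.08 in wildtype MP. All 3 hypomorph arrays lay below all 3 wildtype arrays, and the difference was -1.46 ± 0.30 (log2, SE), a 2.76-fold lower level. These MP arrays chose the gene, so its values there are a description with no test. In HSC, Flt3 read 8.88, 8.96 and 8.76 in hypomorph cells, against 8.85 and 10.13 in wildtype cells. The wildtype arrays stood more than 1 unit apart, the groups overlapped, and Flt3 was not called (-0.62 ± 0.33, adjusted p = 0.254). Wildtype HSC array 2 decides this value: without it the difference was 0.02 (adjusted p = 0.993), and without wildtype array 1 it was -1.26 (adjusted p = 0.0191). In wildtype B progenitors the Flt3 level was 7.18 and 6.27. It was lower there than in wildtype HSC by a log2 fold change of -2.76 ± 0.36 (adjusted p = 2.974e-05). Flt3 was thus lowest in B progenitors and next in hypomorph MP; the wildtype MP arrays lay just above the hypomorph HSC arrays, and the wildtype HSC arrays overlapped both.

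Il7r, the alpha chain shared by the receptors for interleukin 7 and TSLP, read 3.67, 4.08 and 4.29 in hypomorph MP, against 5.84, 4.97 and 5.17 in wildtype MP. The groups did not overlap, and the difference was -1.31 ± 0.26, a 2.48-fold lower level, again given without a test. A further Il7r probe set gave -0.50, with means of 2.99 ± 0.21 in hypomorph and 3.49 ± 0.39 in wildtype MP (SD, n = 3 each). In HSC, Il7r was dim throughout, at 4.10, 3.40 and 3.93 in hypomorph cells and 4.12 and 4.54 in wildtype cells. The hypomorph arrays lay just below the wildtype ones without a call (-0.52 ± 0.30, adjusted p = 0.290). B progenitors gave 12.17 and 12.31, 7.91 above wildtype HSC on the log2 scale, with no test. In order, Il7r was highest in B progenitors and next in wildtype MP, while hypomorph MP overlapped hypomorph HSC and wildtype HSC, all below the median of all values. No detection calls were used, so it is not known whether those dim levels were above background. In a sorted population fewer cells with a transcript and less transcript per cell cannot be told apart, here or for any gene below.

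**Figure D1:**
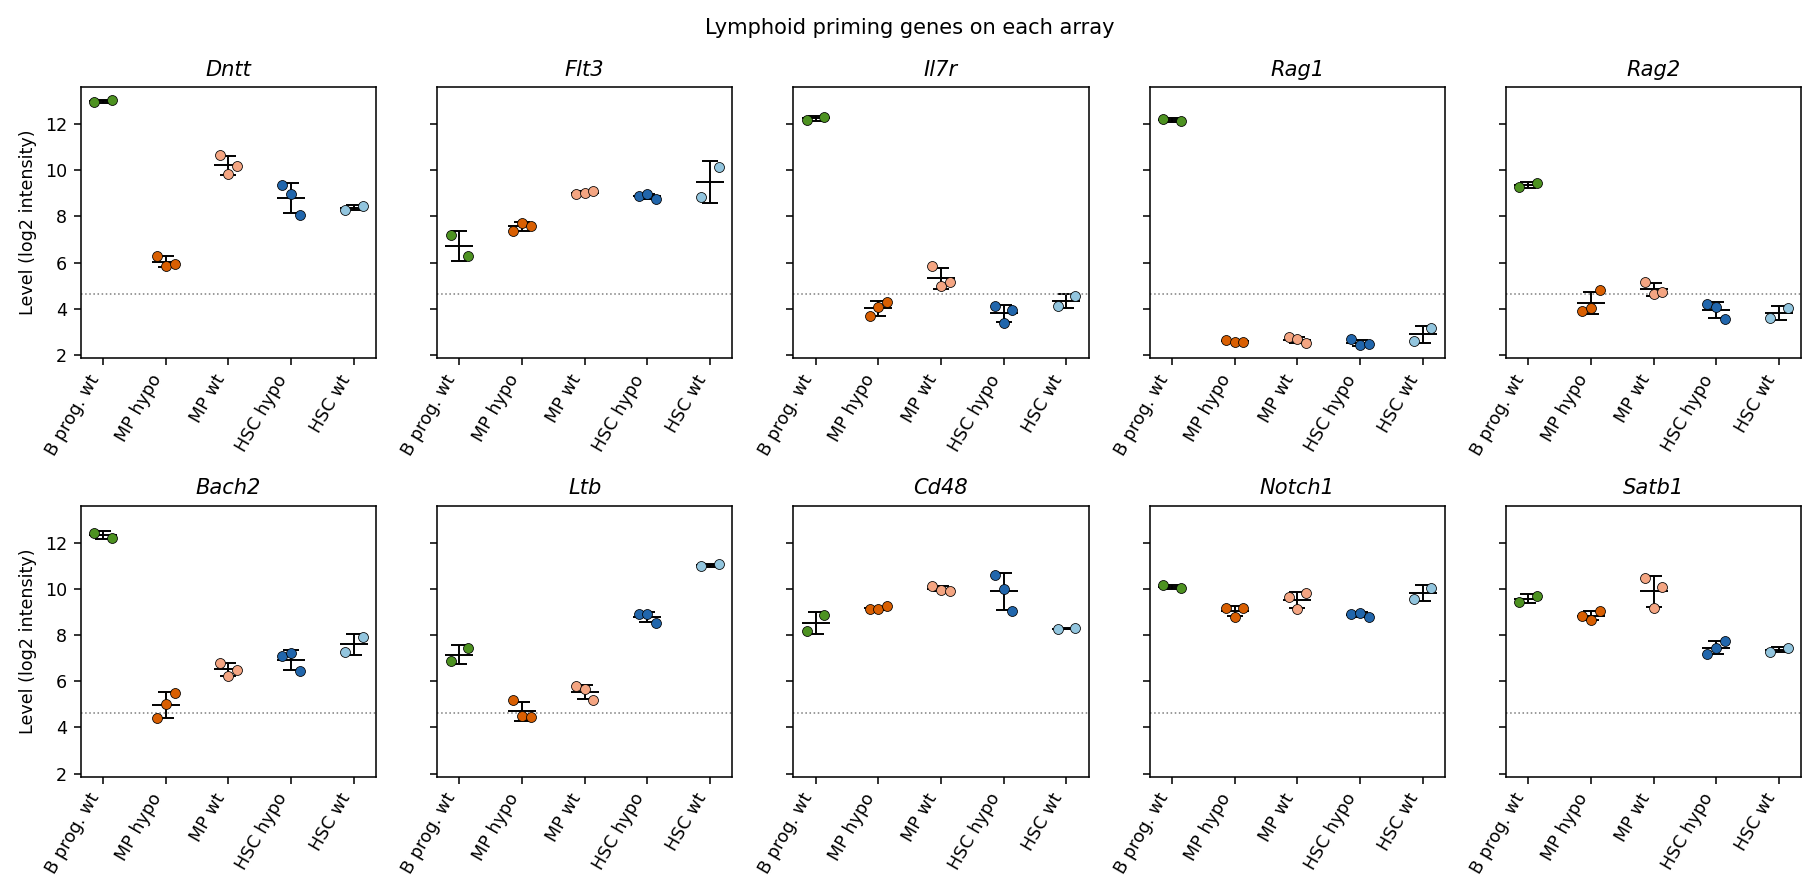
Level of each lymphoid priming gene (log2 intensity) on every array, by population, with mean and SD bars. Points are arrays, the dotted line is the median of all values (4.64), and levels are not comparable between genes; Dntt sits between 5.87 and 6.30 in hypomorph MP and between 9.82 and 10.64 in wildtype MP.

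Dntt, Rag1 and Rag2 encode the enzymes of antigen receptor gene assembly. Dntt, the terminal transferase that adds untemplated bases at V(D)J joints, had levels of 6.30, 5.87 and 5.95 in hypomorph MP, against 10.64, 9.82 and 10.18 in wildtype MP. The groups were far apart, by -4.18 ± 0.30, an 18.1-fold lower level, and no other member differed by as much between the MP genotypes; the value is a description. The brightest Dntt probe set has a name ending in x_at, which the manufacturer gives to sets with probes that can match other transcripts. The other Dntt probe sets gave -3.94 and -2.16 in the same direction.

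In HSC, Dntt gave 9.34, 8.95 and 8.06 in hypomorph cells and 8.29 and 8.44 in wildtype cells. These overlapped, with no call (0.42 ± 0.33, adjusted p = 0.460), and both further probe sets were also slightly positive, at 0.53 and 0.50. The genotype effect on Dntt in HSC minus that in MP was 4.59 on the log2 scale, which was not tested since the MP arrays chose the gene. Dntt reached 12.93 and 13.03 in B progenitors, higher than in wildtype HSC by 4.61 ± 0.36 (adjusted p = 2.605e-07). In wildtype cells the order was B progenitors, MP and then HSC, with no overlap between neighbours, and hypomorph MP lay below every other population. The probe set that gave -3.94 in MP also had hypomorph MP lowest. The one that gave -2.16 did not, with overlapping arrays and means of 3.45 in hypomorph MP, 3.38 in wildtype HSC and 3.88 in hypomorph HSC.

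Rag1, a subunit of the recombinase that cuts at recombination signals, was bright only in B progenitors, at 12.22 and 12.11. It read 2.55 to 2.65 in hypomorph MP and 2.53 to 2.77 in wildtype MP, with a difference of -0.07 ± 0.18. It read 2.68, 2.45 and 2.46 in hypomorph HSC, against 2.62 and 3.16 in wildtype HSC (-0.36 ± 0.20, adjusted p = 0.285). So all 11 MP and HSC arrays were far below the median of all values, where a change of either sign may not be measurable. Rag1 passed the filter through the B progenitor arrays alone, so its difference from the other populations is not tested.

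Rag2, the other recombinase subunit, gave 3.92, 4.03 and 4.81 in hypomorph MP, against 5.17, 4.64 and 4.72 in wildtype MP. Hypomorph array 3 lay among the wildtype arrays (-0.59 ± 0.26, no test). In HSC it gave 4.20, 4.06 and 3.56 in hypomorph cells and 3.60 and 4.02 in wildtype cells, which overlapped (0.13 ± 0.30, adjusted p = 0.824). Rag2 was higher in wildtype MP than in wildtype HSC by 1.04 ± 0.30. The difference was 0.82 without wildtype HSC array 1 and 0.87 without wildtype MP array 1. The step to B progenitors, at 9.26 and 9.46, was larger, at 5.55 ± 0.32 over wildtype HSC. Every HSC array lay below the median that the filter asked for, so Rag2 had to be brighter in other populations to be tested. Its differences from HSC are therefore a description with no test.

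Notch1, Bach2 and Satb1 encode a receptor and nuclear factors that steer the lineage. Notch1, whose ligand-released intracellular part directs progenitors to the T lineage, had levels of 9.16, 8.76 and 9.18 in hypomorph MP, against 9.63, 9.14 and 9.80 in wildtype MP. These overlapped (-0.49 ± 0.21, no test), and a further Notch1 probe set had the other sign (0.40). In HSC, Notch1 read 8.90, 8.96 and 8.77 in hypomorph cells, against 9.57 and 10.05 in wildtype cells. Notch1 fell in hypomorph HSC, with all 3 arrays below both wildtype arrays, by a log2 fold change of -0.93 ± 0.24, a 1.91-fold lower level (adjusted p = 0.0251). The further probe set gave -0.26 there, with overlapping arrays, and was not called when tested singly (limma adjusted p = 0.620). The call of the brighter probe set was not held by several alternatives. It was lost without wildtype HSC array 2 (-0.70, adjusted p = 0.250), without hypomorph HSC array 2 (-0.97, adjusted p = 0.0604), with probe sets averaged (-0.60, adjusted p = 0.0752), with arrays centred on their medians (-0.83, adjusted p = 0.0510) and with the HSC arrays alone in the model (adjusted p = 0.130). In B progenitors Notch1 was 10.15 and 10.03, not called against wildtype HSC (0.28 ± 0.26, adjusted p = 0.418) or wildtype MP (0.57 ± 0.24, adjusted p = 0.0837).

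Bach2, a repressor that favours B cell over myeloid genes, gave 4.41, 5.0 and 5.49 in hypomorph MP, against 6.81, 6.24 and 6.50 in wildtype MP. The groups did not overlap and the difference, -1.55 ± 0.30, was beyond those of Flt3 and Il7r. The further Bach2 probe sets did not show it, at 0.02 and 0.17, and with all 3 averaged the difference was -0.45. In HSC, Bach2 read 7.11, 7.22 and 6.42 in hypomorph cells, against 7.26 and 7.92 in wildtype cells. The hypomorph arrays were all lower, without a call (-0.67 ± 0.34, adjusted p = 0.224). B progenitors gave 12.43 and 12.19, higher than wildtype HSC by 4.72 ± 0.37 (adjusted p = 2.485e-07).

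Against HSC of the same genotype, Bach2 fell in wildtype MP by a log2 fold change of -1.07 ± 0.34 (adjusted p = 0.0257), and in hypomorph MP by -1.95 ± 0.30 (adjusted p = 7.07e-04). A further Bach2 probe set gave -2.47 in wildtype and -1.39 in hypomorph cells. Another showed no fall, at 0.11 in wildtype and 0.08 in hypomorph cells. The wildtype call was lost with arrays centred (-0.93, adjusted p = 0.0587), without wildtype HSC array 2 (-0.74, adjusted p = 0.227), without wildtype MP array 2 (-0.94, adjusted p = 0.0710) and without wildtype MP array 3 (-1.07, adjusted p = 0.0662).

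Satb1, a chromatin organiser required for early lymphoid development, had levels of 8.83, 8.63 and 9.05 in hypomorph MP, against 10.44, 9.15 and 10.10 in wildtype MP. The hypomorph arrays were all lower, by -1.06 ± 0.28. Of 4 further probe sets, 3 were lower too (-0.73, -1.28 and -0.41) and 1 reached the median of all values on 0 arrays. In HSC, Satb1 read 7.19, 7.42 and 7.73 in hypomorph cells, against 7.28 and 7.43 in wildtype cells, with overlap and no call (0.09 ± 0.32, adjusted p = 0.883). The sign turned with probe sets averaged (-0.29). Against HSC of the same genotype Satb1 was higher in MP, by 1.39 ± 0.28 in hypomorph cells (adjusted p = 0.00503) and 2.54 ± 0.32 in wildtype cells (adjusted p = 5.746e-05). At 9.43 and 9.70 in B progenitors it was higher than in wildtype HSC by 2.21 ± 0.35 (adjusted p = 1.416e-04).

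Ltb and Cd48 encode surface molecules. Ltb, the lymphotoxin beta chain that anchors the lymphotoxin trimer to the membrane, had levels of 8.91, 8.90 and 8.51 in hypomorph HSC, against 10.96 and 11.05 in wildtype HSC. The groups were more than 2 units apart. Ltb fell in hypomorph HSC by a log2 fold change of -2.23 ± 0.28, a 4.69-fold lower level (adjusted p = 3.439e-04). The call held under every alternative, between -2.30 and -2.03. In MP it was dim, at 5.18, 4.47 and 4.45 in hypomorph cells and 5.77, 5.64 and 5.17 in wildtype cells. Hypomorph array 1 lay just above the lowest wildtype array (-0.83 ± 0.25, no test). Between cell types Ltb dropped steeply away from HSC, by -5.48 ± 0.28 in wildtype MP (adjusted p = 2.176e-08) and by -4.08 ± 0.25 in hypomorph MP (adjusted p = 2.573e-07), each against HSC of its genotype. B progenitors, at 6.85 and 7.45, were also below wildtype HSC (-3.86 ± 0.31, adjusted p = 3.09e-07) but above wildtype MP (1.62 ± 0.28, adjusted p = 4.202e-04).

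Cd48, a SLAM family protein that marks most progenitors and is low on stem cells, had levels of 10.61, 9.98 and 9.05 in hypomorph HSC, against 8.25 and 8.29 in wildtype HSC. All hypomorph arrays were higher, though spread over more than 1 unit. Cd48 rose in hypomorph HSC by 1.61 ± 0.35, a 3.05-fold higher level (adjusted p = 0.0102). The call was lost without wildtype HSC array 2 (1.63, adjusted p = 0.0755) and with the HSC arrays alone in the model (adjusted p = 0.130). In MP the direction was the other way, with 9.11, 9.11 and 9.24 in hypomorph cells, against 10.13, 9.95 and 9.91 in wildtype cells (-0.84 ± 0.31, no test). Cd48 was the only member for which every array moved one way in HSC and the other way in MP, and the effect in HSC minus that in MP was 2.45; the difference was not tested.

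Cd48 was higher in wildtype MP than in wildtype HSC by 1.72 ± 0.34 (adjusted p = 0.00201). In hypomorph cells the same comparison overlapped and was not called (-0.73 ± 0.31, adjusted p = 0.170), but was called without hypomorph HSC array 3 (-1.14, adjusted p = 0.00547). B progenitors, at 8.19 and 8.86, were lower than wildtype MP by a log2 fold change of -1.47 ± 0.34 (adjusted p = 0.00405), a call lost without B progenitor array 1 (-1.14, adjusted p = 0.0762). They were not called against wildtype HSC (0.25 ± 0.38, adjusted p = 0.623).

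**Figure D2:**
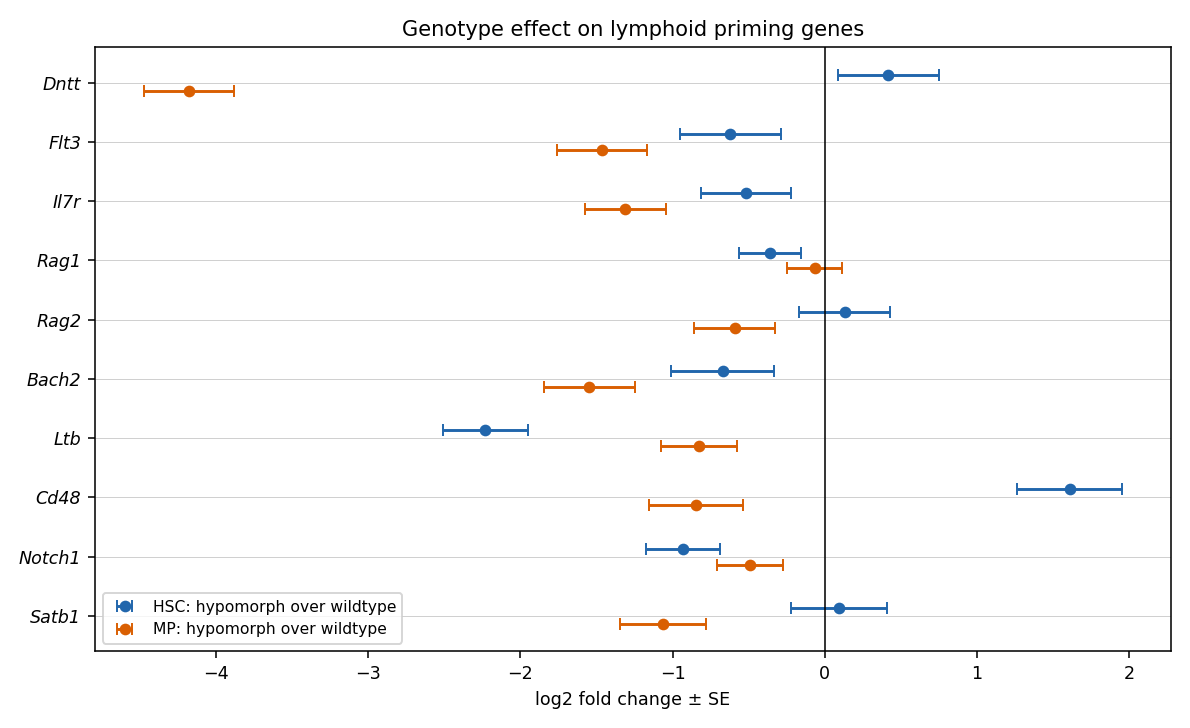
Genotype effect on each gene, as log2 fold change of hypomorph over wildtype with SE bars, in HSC (blue) and MP (orange). All 10 genes are negative in MP, from -0.07 for Rag1 to -4.18 for Dntt, a contrast used to choose the set, while in HSC Cd48 lies at 1.61 and Ltb at -2.23.

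Counted over the set, 1 of 10 genes (Cd48) rose and 2 of 10 (Ltb and Notch1) fell in hypomorph HSC by limma at an adjusted p under 0.05. Over all 12745 genes 5.37% were higher and 5.41% lower in that comparison. The median log2 fold change was -0.44 for the set and -0.11 for all genes. The 3 genes called in HSC are not those by which the set was chosen. In MP no count of called members is given, since MP arrays chose the set. Over all genes there, 0.251% were lower and 0.337% higher at that threshold, and the median was -0.02. Hypomorph and wildtype MP arrays did not overlap for Dntt, Flt3, Il7r, Bach2, Cd48 and Satb1, where 27.7% of all genes had no overlap. In HSC they did not overlap for Il7r, Bach2, Ltb, Cd48 and Notch1, where 35.6% of all genes had no overlap, so with 3 against 2 arrays a lack of overlap is common.

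**Figure D3:**
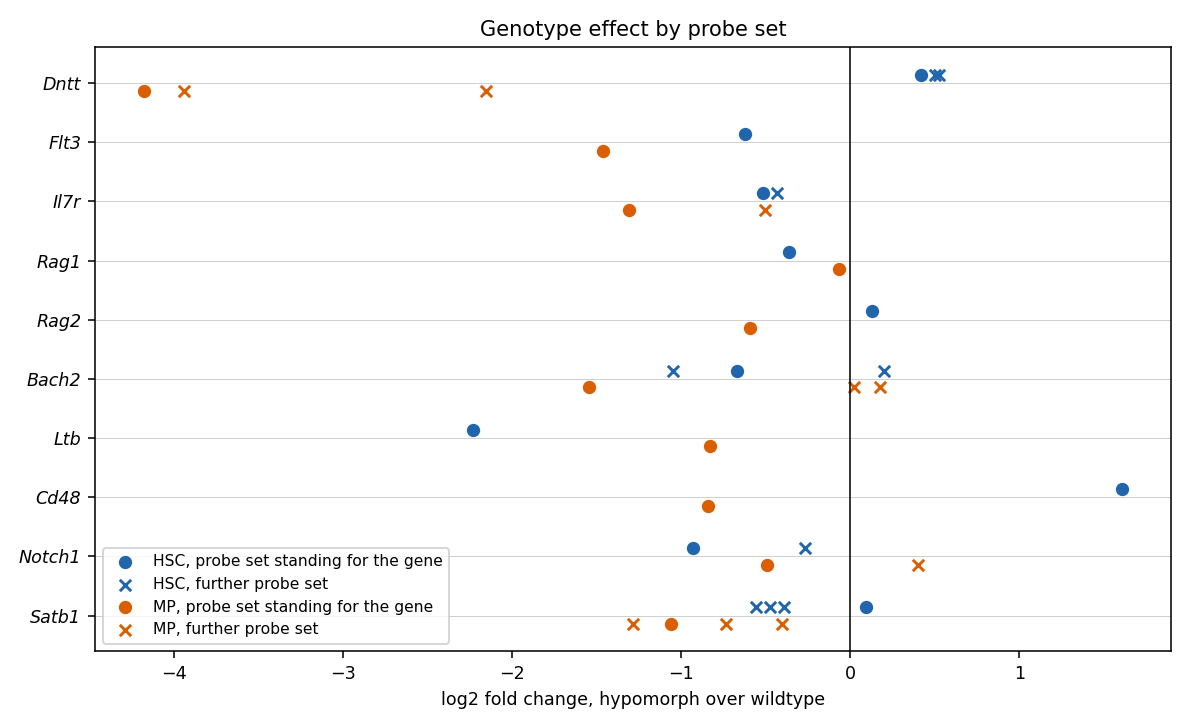
Genotype effect of every probe set of the set that passed the filter, as log2 fold change of hypomorph over wildtype, with circles for the probe set standing for its gene and crosses for further ones. The Dntt crosses lie at -3.94 and -2.16 in MP beside the circle at -4.18, while the Bach2 crosses in MP lie at 0.02 and 0.17, away from the circle at -1.55.

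Between cell types the members went different ways. In wildtype B progenitors against wildtype HSC, Dntt, Bach2 and Satb1 rose and Flt3 and Ltb fell, where 14.8% of all genes were higher and 30.2% lower. Cd48 and Notch1 were not called. Rag2 was higher too, but it is left out of the calls because the filter bears on its difference from HSC. In the other 3 comparisons Dntt, Flt3 and Il7r have values but no test, since they hold MP arrays. Of the 6 members tested in wildtype B progenitors against wildtype MP, 3 rose (Rag2, Bach2 and Ltb) and 1 fell (Cd48), where 11.2% of all genes were higher and 24.7% lower. Bach2 differed there by 5.80 ± 0.34 (adjusted p = 1.198e-08) and Rag2 by 4.51 ± 0.30 (adjusted p = 3.778e-08). Satb1 was not called (-0.33 ± 0.32, adjusted p = 0.457), but was called lower without wildtype MP array 2 (-0.71, adjusted p = 0.0442) and higher with probe sets averaged (0.62, adjusted p = 0.0281), so its order between these populations is not settled. Dntt, Flt3 and Il7r differed by 2.76, -2.30 and 6.91 on the log2 scale.

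In wildtype MP against wildtype HSC, Cd48 and Satb1 rose and Bach2 and Ltb fell, where 13.8% of all genes were higher and 18% lower. Rag2 was higher too, but the filter bears on its difference here as well, and it is left out. Rag1 (-0.23 ± 0.20, adjusted p = 0.422) and Notch1 (-0.29 ± 0.24, adjusted p = 0.392) were not called. In hypomorph MP against hypomorph HSC, Satb1 rose and Bach2 and Ltb fell, where 4.18% of all genes were higher and 7.47% lower. Rag1 (0.06 ± 0.18, adjusted p = 0.900), Cd48 (-0.73 ± 0.31, adjusted p = 0.170) and Notch1 (0.15 ± 0.21, adjusted p = 0.762) were not called there. Rag2 stood at 0.31 ± 0.26, with no test. Dntt stood at -2.74 in hypomorph MP over hypomorph HSC, against 1.85 in wildtype MP over wildtype HSC. Flt3 stood at -1.31 in the hypomorph and -0.46 in the wildtype comparison, and Il7r at 0.20 in the hypomorph and 1.00 in the wildtype comparison. The further Dntt probe sets gave -2.56 and -0.44 in the hypomorph comparison, the latter with overlap, and 1.91 and 2.22 in the wildtype one. With probe sets averaged, the hypomorph value of Dntt was -1.91. Dntt was thus higher in MP than in HSC in wildtype mice. In hypomorph mice it was lower in MP than in HSC, by an amount that depended on the probe set. Each of these pairs holds the MP arrays by which the genes were chosen, and the difference between genotypes was not tested.

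**Figure D4:**
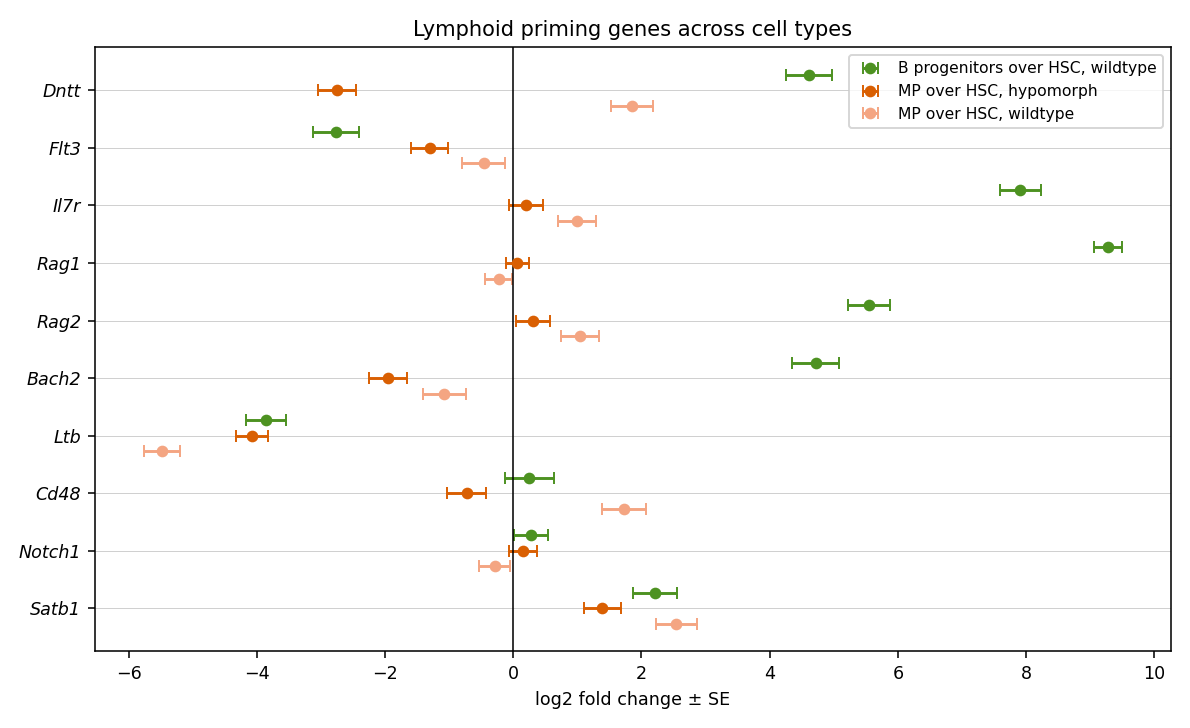
Log2 fold change with SE bars of each gene in wildtype B progenitors over wildtype HSC (green), hypomorph MP over hypomorph HSC (orange) and wildtype MP over wildtype HSC (pale orange). Rag1 and Il7r lie at 9.28 and 7.91 in B progenitors, Ltb is negative in all 3 comparisons, and Dntt changes sign between hypomorph (-2.74) and wildtype MP (1.85).

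Over the 13 arrays the members fell into different patterns. Il7r followed Rag2 (Pearson r = 0.988, 13 arrays) and Rag1 (r = 0.979), and Bach2 followed Rag1 (r = 0.924). Ltb and Satb1 ran against each other (r = -0.744), and the highest r of Cd48 with another member was 0.271 (Flt3). These are descriptions over populations that differ in many genes, and the bright B progenitor arrays set much of the highest values. Among all other tested genes, those most like Il7r were Slamf6 (r = 0.993), Rag2 (0.988) and 6330509M05Rik (0.985). Those most like Dntt were Il12a (0.925), Sdc1 (0.924) and Stk38 (0.921), and those most like Flt3 were Tbc1d16 (0.933), Nefh (0.933) and Il1r1 (0.930).

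Genes of the pathways around the members were counted over 8 lists with 133 genes, of which 113 were tested. In hypomorph against wildtype HSC 7 of the 113 rose and 7 fell. These shares are near the 5.37% higher and 5.41% lower of all genes, so the counts of single lists that follow describe their genes and set no list apart. Around Cd48, 2 of 8 SLAM family genes rose and 0 fell. Cd244a, the receptor that binds CD48, averaged 9.40 ± 0.12 in hypomorph HSC (n = 3) and 6.80 ± 1.05 in wildtype HSC (n = 2), a 6.07-fold higher level (adjusted p = 0.00270). Slamf1, also a stem cell marker, averaged 9.22 ± 0.01 in hypomorph and 8.17 ± 0.19 in wildtype HSC (adjusted p = 0.0148). The list median was 0.06, against -0.11 for all genes.

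Around Ltb, 3 of 11 lymphotoxin pathway genes fell and 0 rose, with a list median of -0.55. Relb, the subunit of the alternative NF-kB pathway that lies downstream of the lymphotoxin beta receptor, differed by -1.54 ± 0.33 (adjusted p = 0.00969). Tnfrsf1b, a receptor for TNF and soluble lymphotoxin alpha, differed by -1.17 ± 0.31 (adjusted p = 0.0297). Map3k14, the kinase that starts the alternative pathway, differed by -0.95 ± 0.21 (adjusted p = 0.0115) and was named after its values were seen. The receptor itself, Ltbr, was not called (-0.39 ± 0.33, adjusted p = 0.498).

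Around Rag1 and Dntt, 2 of 9 partners of V(D)J recombination rose and 0 fell (median 0.11). Hmgb2, a DNA-bending protein that helps the recombinase and is also a gene of dividing cells, averaged 10.90 ± 1.21 in hypomorph HSC (n = 3) and 7.98 ± 0.01 in wildtype HSC (n = 2) (adjusted p = 0.00237). Lig4, the ligase of end joining, differed by 1.32 ± 0.36 (adjusted p = 0.0308). Around Il7r, 2 of 13 signalling genes fell and 0 rose (median -0.32). They were Tslp, a cytokine that signals through the Il7r chain (-1.60 ± 0.41, adjusted p = 0.0256), and Cish, a feedback inhibitor of cytokine signalling through STAT5 (-1.48 ± 0.26, adjusted p = 0.00359).

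The other lists moved little. Of 24 lymphoid regulators Id2, an inhibitor of E proteins, rose (1.75 ± 0.33, adjusted p = 0.00528) and Runx1, a factor of blood cell identity, fell (-1.12 ± 0.28, adjusted p = 0.0207), with a median of 0.01. Of 11 markers of lymphoid-primed progenitors Cd53, a tetraspanin, rose (1.04 ± 0.27, adjusted p = 0.0259) and Lsp1, an actin-binding protein of leukocytes, fell (-1.14 ± 0.34, adjusted p = 0.0451), with a median of -0.07. Of 27 Notch pathway genes Adam10, the protease that makes the ligand-dependent cut in Notch, rose (1.20 ± 0.26, adjusted p = 0.0117) and 0 fell, with a median of -0.04. Of 10 Bach2 and Satb1 partners 0 were called, with a median of -0.23. With the HSC arrays alone in the model only Cd244a of these 14 genes kept its call. Without wildtype HSC array 2, 9 of the 14 lost it, at an adjusted p from 0.0508 for Cd244a to 0.519 for Lsp1, and Hmgb2, Cish, Id2 and Relb kept it whichever single HSC array was left out. Lig4, Tslp, Lsp1, Cd53, Adam10 and Tnfrsf1b also lost it without hypomorph HSC array 2, Lig4, Tslp and Slamf1 without wildtype HSC array 1, Lig4 and Cd53 without hypomorph HSC array 1, and Lsp1 and Tnfrsf1b without hypomorph HSC array 3, with adjusted p between 0.0504 and 0.185. When probe sets were averaged, Id2 (0.58, adjusted p = 0.0869), Runx1 (-0.53, adjusted p = 0.0721) and Map3k14 (-0.45, adjusted p = 0.0795) were not called, and with arrays centred Lsp1 (adjusted p = 0.0725) and Tnfrsf1b (adjusted p = 0.0578) were not. Lsp1 also lost its call with the second normalization (adjusted p = 0.0592), no filter (0.0587), every probe set tested singly (0.0557) and the replicate number as a block (0.0845), and Tnfrsf1b with that block (0.0747).

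In hypomorph against wildtype MP, 0 of the 113 pathway genes were called by limma after adjustment, where 0.337% of all genes were higher and 0.251% lower. At an unadjusted p under 0.05 there were 7 higher and 9 lower, 16 of 113, where 15% of all genes met that threshold. The values ran from -1.34 for Irf8, a factor of the monocyte and dendritic cell lineages, to 1.10 for Id2. With the MP arrays alone in the model these 2 genes passed (adjusted p = 0.0160 for Irf8 and 0.00863 for Id2), which were named after their values were seen. List medians lay between -0.25 for markers of lymphoid-primed progenitors and 0.12 for SLAM family genes, against -0.02 for all genes. With so few of all genes called in this comparison, the 0 of 113 does not set these lists apart from the other genes.

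**Figure D5:**
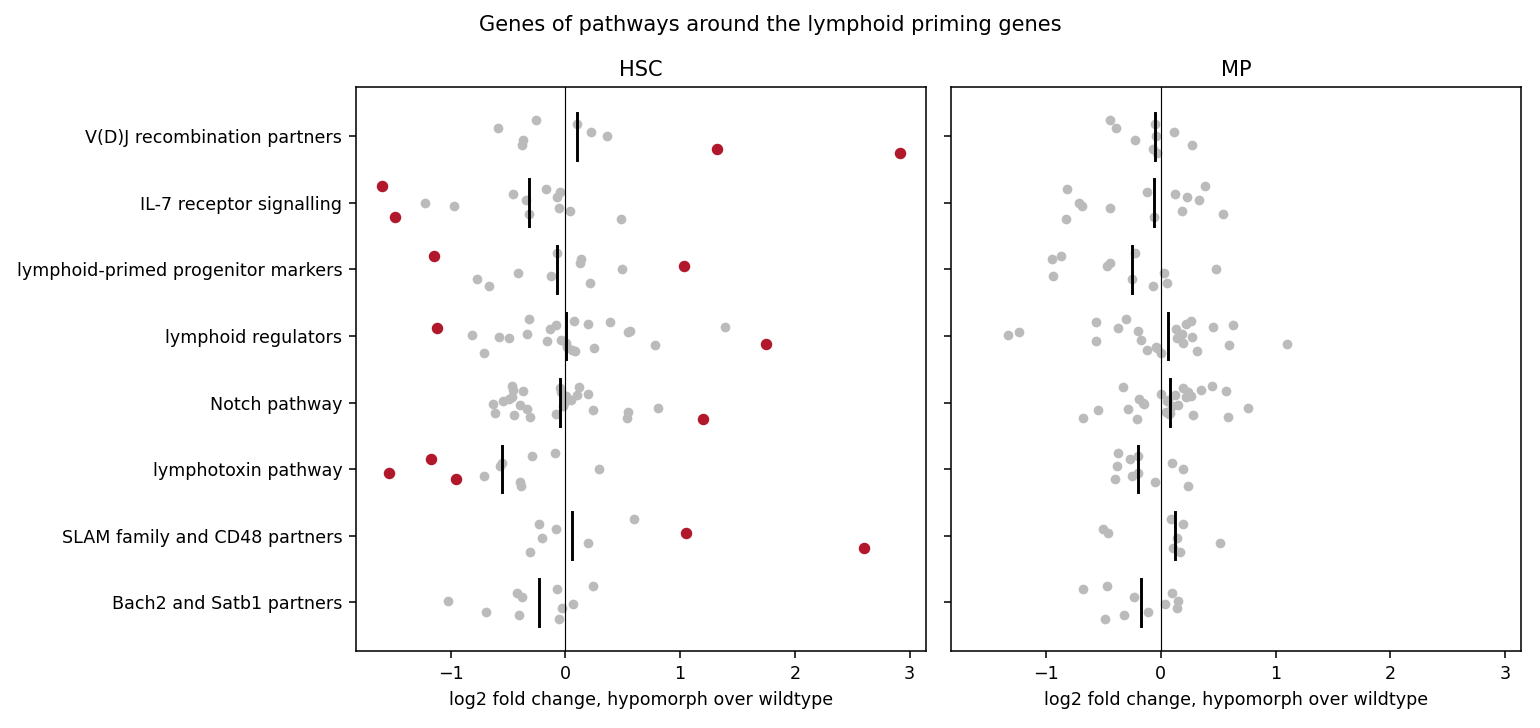
Log2 fold change of hypomorph over wildtype for each tested gene of 8 lists, in HSC (left) and MP (right). Red points passed an adjusted p of 0.05 in limma and black bars are list medians; HSC has 14 red points, from Tslp at -1.60 to Hmgb2 at 2.91, and MP has 0.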

How the data were processed

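Per the labels' protocols, total RNA was extracted with a Qiagen micro kit and biotinylated cRNA was made from 35000 to 100000 sorted cells and hybridised to Affymetrix arrays. The authors deposited log2 values that they computed with RMA, per the submitters' processing notes; the log base is read from the values (1.93 to 14.99), its version is not stated in these sources, and no detection calls were used. Of 45101 probe sets 34958 carried 1 symbol, 932 several and 9211 none, by GEO's platform annotation. A normalization of 13 arrays was used, and a second one of 11 of them (r of at least 0.9987 for the same label) was an alternative. Each gene was represented by its brightest probe set on average. Limma 3.58.1 (R 4.3.3) was fitted to 5 groups in 1 model with 8 residual degrees of freedom, with Benjamini-Hochberg adjustment over 12745 genes and a threshold of 0.05. SE are limma's. The number of arrays limits the precision. Members got no p where MP arrays chose them, and Rag1 and Il7r none against B progenitors, through which they passed the filter. For Rag2 no p is given between HSC and other cell types. The named genes were all members, Dnmt1, up to 2 called rises and 2 called falls per list, and the 3 genes most correlated with Dntt, Flt3 and Il7r. Members and lists were chosen with earlier results of these data known. The test was checked on simulated data. The labels do not say whether replicate numbers pair the arrays. Over 23 same-numbered pairs the deviations from group means correlated at -0.313 to 0.301, and 6 were over 0.1. With 2 or 3 arrays per group these values cannot decide it. The alternatives are the second normalization, the replicate block, only the arrays compared, no filter or one at the 75th percentile, probe sets averaged or tested singly, arrays centred on their medians, and each array left out. Promoters are RefSeq GRCm38.p6; all 10 members matched.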

Additional observations from a re-analysis of the deposited data

Results flagged for a closer look

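Cd48 was singled out because its genotype effect had opposite signs in the progenitor populations, with every array on the side of its group. The effect in HSC was 1.61 and that in MP was -0.84 on the log2 scale, a difference of 2.45 (HSC minus MP). The difference was not tested, because the MP arrays were used to choose the genes. Cd48 had 1 probe set, so no further probe set bears on it. Proliferation genes averaged 10.18 to 10.36 in hypomorph and 8.67 to 8.71 in wildtype HSC, and 10.01 to 10.31 in hypomorph and 10.26 to 10.54 in wildtype MP. Their part in the Cd48 values was not tested.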

How the results depend on the processing

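Over the member values and settings other than left-out arrays, 443 kept their direction and side of the threshold, or, where no test is given, stayed within the spread between arrays, while 6 lost the call, 1 gained it, 7 moved and 3 turned sign; with single arrays left out these numbers were 285, 9, 3, 5 and 8. The count of members called in hypomorph against wildtype HSC was 3, and 1 (Ltb) with only the arrays compared; with single arrays left out it ran from 1 (without wildtype HSC array 2) to 4. The count of pathway genes called in MP was 0, and 2 with only the arrays compared, and 0 to 1 with single arrays left out (1 without hypomorph HSC array 1 or 3). With the replicate number as a block, 3 members were called in HSC, and 4 in place of 5 in wildtype MP against wildtype HSC, where Bach2 had -1.08 (adjusted p = 0.0503). The counts against HSC of another cell type, and those over member values above, include Rag2, for which they are a description. This block changed no other member's call and took those of Lsp1 and Tnfrsf1b. Whether the numbers pair the arrays is not known. Satb1 in HSC turned to -0.0218 with the block and -0.29 with probe sets averaged, and Satb1 in B progenitors against MP to 0.62 with probe sets averaged; there the count of called members was 6 in place of 4, and in HSC 2 in place of 3. Averaging moved the MP values of Dntt to -3.42, Il7r to -0.91, Bach2 to -0.45 and Notch1 to -0.05. With arrays left out in turn, values that changed sign ran from -1.26 to 0.0178 (Flt3 in HSC), -0.0845 to 0.34 (Rag2 in HSC), -0.0479 to 0.22 (Satb1 in HSC), -0.0012 to 0.37 (Il7r in hypomorph MP against HSC), -1.10 to 0.18 (Flt3 in wildtype MP against HSC), -0.50 to 0.0418 (Rag1 in wildtype MP against HSC) and -0.084 to 0.59 (Cd48 in B progenitors against HSC). Centring each array on its median moved the HSC genotype values by 0.10 and the wildtype MP against HSC values by 0.15 (log2), so members near the threshold depend on it. Signal over background limits Rag1, and Il7r and Rag2 outside B progenitors. The second normalization does not cover B progenitors. The cause of these changes was not tested.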

Other observations

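Dnmt1 itself differed by a log2 fold change of -0.80 in hypomorph MP against hypomorph HSC (adjusted p = 0.0295 by limma) and by -0.21 in wildtype MP against wildtype HSC (adjusted p = 0.544). Among dendritic cell markers, Ccr2 (7.51 to 8.02 in hypomorph and 5.03 to 5.12 in wildtype HSC) and Clec10a (8.80 to 9.0 in hypomorph and 5.65 to 6.24 in wildtype HSC) were the 2 called higher in hypomorph HSC. In MP the same list averaged 6.50 to 6.51 in hypomorph and 6.52 to 6.64 in wildtype cells, with 0 of 6 called.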
